A study of Mus musculus with 6 samples.

Results

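The clustered protocadherins are cell adhesion proteins whose genes stand in tandem arrays, named alpha, beta and gamma, on mouse chromosome 18. They were read here in mouse embryonic stem (ES) cells that carried a vector for FLAG-tagged mouse CTCFL or a control vector. Members were the rows of the deposited expression table, 1 row per probe set, whose platform gene symbol begins with Pcdha, Pcdhb or Pcdhg followed by a letter or number. This gave 23 of 34760 rows. There was 1 row for the alpha cluster, which carries 14 Pcdha symbols at once, and 22 rows for the beta cluster, with 1 symbol each, Pcdhb1 to Pcdhb22. The alpha row therefore gives 1 value for all alpha genes and cannot tell them apart. No row carried a Pcdhg symbol, so the gamma cluster was not analysed here.

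The cells were clones of 46C, a male ES line of the 129P2/OlaHsd strain that carries a GFP reporter knocked into Sox1, and both groups share that allele. Both were stably transfected, grown in medium with 10% serum and kept under puromycin at 1 µg/ml, which in the FLAG-CTCFL cells also keeps up expression of the construct. Each group had 3 replicate arrays, 6 in all, each of 200 ng total RNA on an Affymetrix Mouse Gene 1.0 ST array. The submitters call the replicates biological, but the labels give neither the number of independent transfections nor the promoter of the construct. A p-value here therefore reflects spread among the 3 cultures of a group and may not cover the spread between clones. The series asked how CTCFL, a paralog of CTCF normally made in male germ cells, affects CTCF and cohesin at promoters.

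In the alpha and gamma clusters each variable first exon has a promoter of its own and is spliced to shared constant exons, whereas each beta gene is a single coding exon without a constant part. Single neurons use different sets of these promoters, and the proteins, which bind like to like, let branches of a neuron tell self from non-self. CTCF and cohesin bind most of the promoters and their distant enhancers and bring them together in loops, while DNA methylation and SMCHD1 keep unused promoters silent. The genes are known for expression in neurons and are mostly silent in ES cells.

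On the mean of the 6 arrays the 23 rows lay in the background range, and none differed between the groups by limma's test. Background was read from 1210 rows of olfactory and vomeronasal receptor genes, which ES cells are not expected to express, and the 95th percentile of their mean log2 signal, 7.63, was taken as the limit. Mean log2 signals of the members over the 6 arrays ran from 6.82 (Pcdhb20) to 7.61 (Pcdhb15), so 0 of 23 lay above the limit. Of all 34760 rows 21734 lay above it. The FLAG-CTCFL mean of Pcdhb15, 7.643, was above 7.629, the same limit to 1 more decimal, but below the 95th percentile of receptor rows on the FLAG-CTCFL arrays alone, 7.648. With such a limit from each group's own arrays, 0 of 23 lay above it in either group. The member nearest to it, Pcdhb15, lay 0.015 below, and the next, the alpha row, 0.079 below. The medians were 7.24 for the members, 7.08 for the receptor rows and 7.95 for all rows, and 17 of the 23 members lay above the receptor median. Signals of different probe sets also differ by how well their probes bind, so the order of the members by signal is not an order of their RNA.

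**Figure D1:**
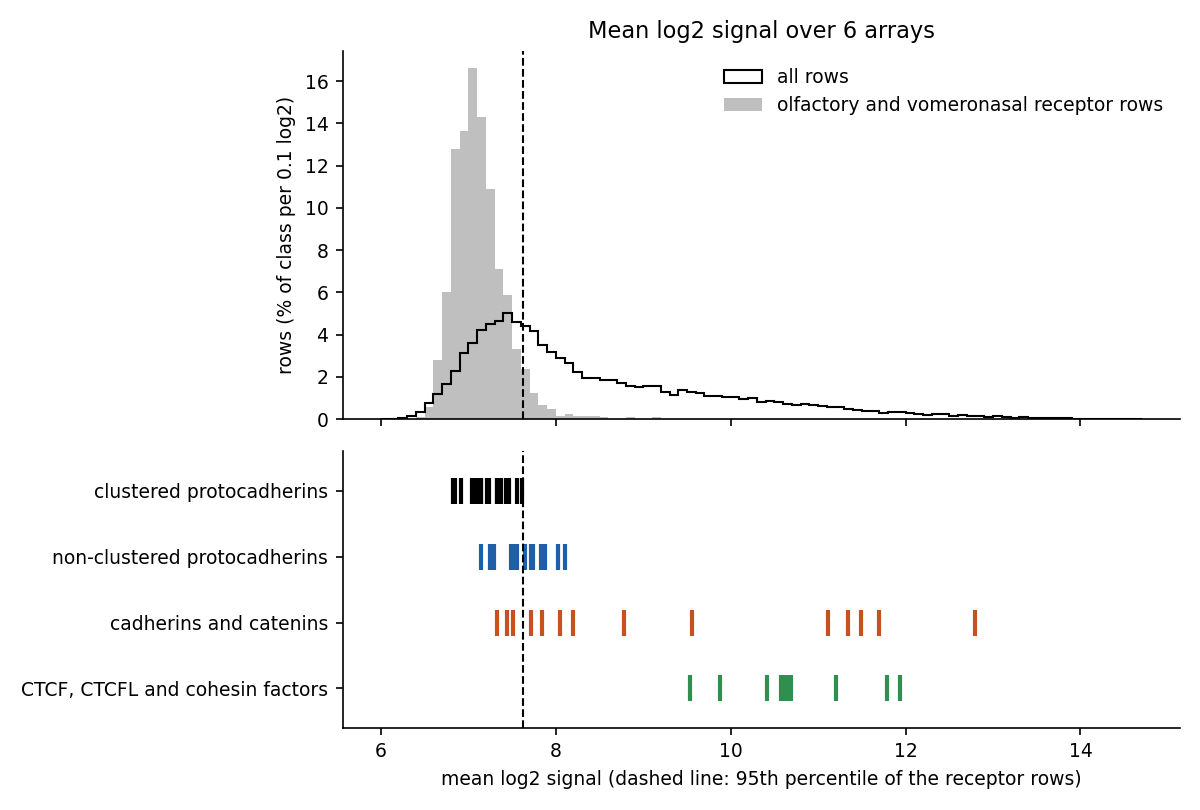
The upper panel plots the share of rows per 0.1 log2 units of mean signal over 6 arrays for all rows (line) and for receptor rows (grey), and the lower panel marks the mean of each listed gene. The 23 clustered protocadherin rows all stand left of the dashed limit of 7.63, and the 12 CTCF, CTCFL and cohesin factors all stand right of it.

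The alpha row had log2 signals of 7.53, 7.49 and 7.56 with the control vector and 7.51, 7.61 and 7.59 with FLAG-CTCFL. The groups overlapped, since FLAG-CTCFL replicate 1 lay below control replicates 1 and 3. The difference, FLAG-CTCFL minus control vector, was 0.046 ± 0.046 (SE, n = 3 per group; 95% interval -0.060 to 0.15; limma adjusted p = 0.604). The row lay at the 92.6th percentile of the receptor rows. The 14 symbols on it include Pcdhac1 and Pcdhac2, the C-type isoforms at the downstream end of the alpha cluster, which neurons use more uniformly than the others.

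Pcdhb4 and Pcdhb7, at the upstream side of the beta cluster, had the largest differences among the members. Pcdhb4 read 7.38, 7.42 and 7.47 in the control group and 7.46, 7.54 and 7.54 in the FLAG-CTCFL group. The groups overlapped at FLAG-CTCFL replicate 1, which lay just under control replicate 3. Its difference was 0.090 ± 0.045 (SE, n = 3 per group; 95% interval -0.015 to 0.19; limma adjusted p = 0.249), and this adjusted p was the smallest of all members. Pcdhb7 read 7.40, 7.41 and 7.39 against 7.44, 7.47 and 7.51, so its groups did not overlap. It differed by 0.077 ± 0.041 (95% interval -0.017 to 0.17; limma adjusted p = 0.272). With array weights and 1 row per gene (which keeps the 22 beta rows), a setting added after the data were seen, both passed, Pcdhb4 at 0.11 (adjusted p = 0.0143) and Pcdhb7 at 0.11 (adjusted p = 0.00989). In that fit FLAG-CTCFL replicate 3 had a weight of 5.77 and the other FLAG-CTCFL arrays 0.414 and 0.321, so 1 array carried most of the group.

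Pcdhb15 had the highest signal. Its values were 7.54, 7.58 and 7.63 with the control vector and 7.65, 7.64 and 7.64 with FLAG-CTCFL. The groups did not overlap, but the lowest FLAG-CTCFL value barely cleared the highest control value. On FLAG-CTCFL replicates 1 and 3 the row was above the 95th percentile of the receptor rows of the same array, 7.62 and 7.63, and no other member did so on any array. Its difference of 0.058 ± 0.043 did not pass (limma adjusted p = 0.456).

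Pcdhb20 was the dimmest member and had the lowest difference. It read 6.82, 6.81 and 6.87 against 6.86, 6.76 and 6.79, with overlapping groups and a difference of -0.027 ± 0.044 (95% interval -0.13 to 0.075; limma adjusted p = 0.774). Pcdhb9 was almost as dim, at 6.79, 6.85 and 6.81 against 6.84, 6.88 and 6.90, and differed by 0.056 (adjusted p = 0.464). Both lay low among the receptor rows as well, at their 10.6th and 13.7th percentiles.

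Pcdhb1 is of interest because its promoter, unlike those of the other beta genes, lacks the conserved sequence element to which CTCF binds. It read 7.30, 7.36 and 7.33 against 7.32, 7.32 and 7.36. The values were interleaved, and the difference was 0.0026 ± 0.042 (95% interval -0.093 to 0.098; limma adjusted p = 0.981). The other beta genes, which carry the element, were spread around it, from -0.027 to 0.090.

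**Figure D2:**
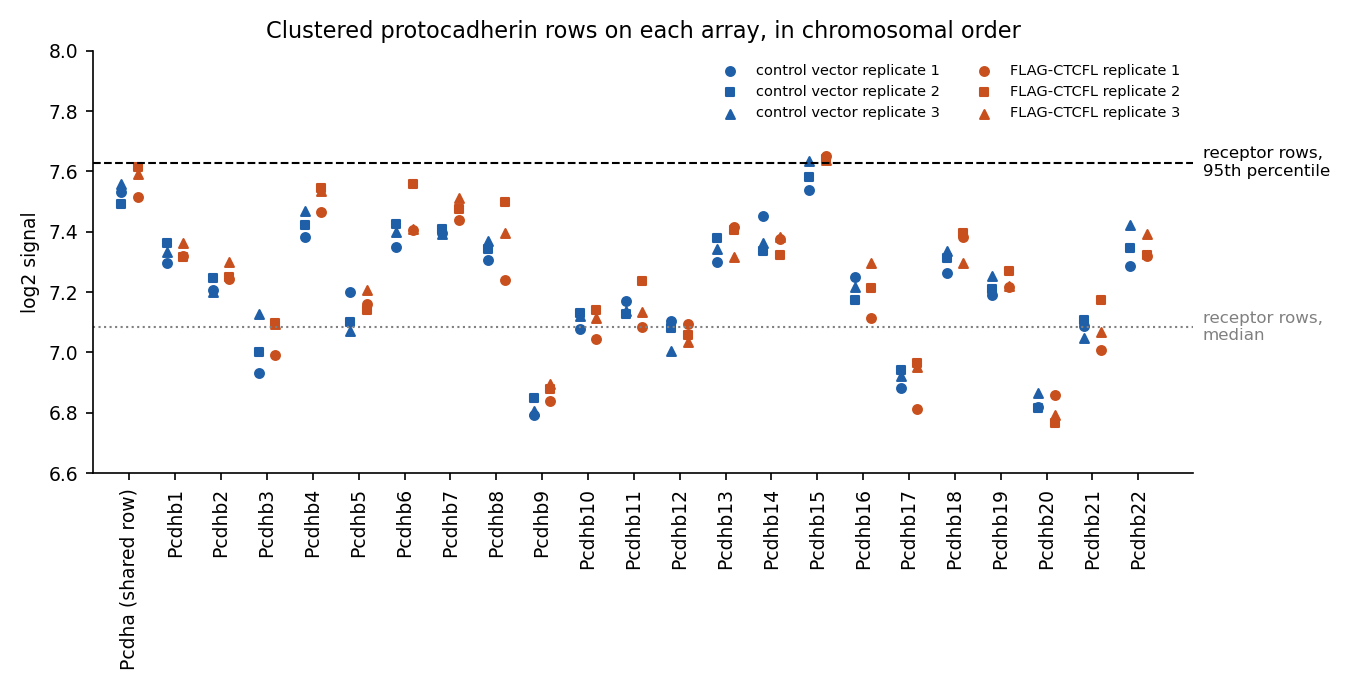
Log2 signal (vertical axis) of each member row on each of the 6 arrays, control vector in blue and FLAG-CTCFL in orange, with the alpha row first and the beta genes in chromosomal order; the lines mark the median (7.08) and 95th percentile (7.63) of the receptor rows. The colours overlap in 21 of the 23 rows, and only Pcdhb7 and Pcdhb15 have all orange points above all blue points.

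The remaining 16 beta rows had overlapping groups. Pcdhb2 (0.045), Pcdhb3 (0.042), Pcdhb5 (0.046), Pcdhb6 (0.066), Pcdhb8 (0.038), Pcdhb13 (0.039), Pcdhb18 (0.054) and Pcdhb19 (0.017) had differences above 0. Pcdhb10 (-0.0088), Pcdhb11 (0.0049), Pcdhb12 (-0.0025), Pcdhb14 (-0.022), Pcdhb16 (-0.0060), Pcdhb17 (-0.0063), Pcdhb21 (0.0017) and Pcdhb22 (-0.0062) lay within 0.022 of 0 either way. Pcdhb8 had the widest spread, with 7.31, 7.34 and 7.37 against 7.24, 7.50 and 7.39. Its lowest and its highest value both came from the FLAG-CTCFL group, and its difference had the largest SE of the members, 0.066.

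Of the 23 members, 0 passed limma's test at an adjusted p of 0.05, where over all rows 6286 passed, 18.1%, with 7.51% higher and 10.6% lower in FLAG-CTCFL cells. This split moved with the scaling, from 2610 higher and 3676 lower to 3753 and 3689 after quantile normalization and 1784 and 3723 with array medians subtracted. Of the 17380 rows above the 50th signal percentile, fitted alone, 6303 passed, 2541 higher and 3762 lower. The lists of mostly bright genes below are to be read beside that count. The share that passed was smaller among dim rows. Among the 11212 other rows within the members' signal range 3.18% passed (2.09% higher and 1.09% lower), and among the receptor rows 0.744% (0.165% higher and 0.579% lower). An unadjusted p under 0.05 was reached by 0 members, 28.6% of all rows, 9.16% of rows in the same range and 3.55% of receptor rows. At 3.18% fewer than 1 of 23 rows would pass, so a count of 0 does not set the members apart from other dim rows. Differences above 0 were seen for 16 of 23 members, against 54.5% of all rows, 58.1% of rows in the same signal range and 49.2% of receptor rows. Groups did not overlap for 2 of 23 members with FLAG-CTCFL higher and for 0 with it lower, against 9.57% and 5.22% of rows in the same range, 5.79% and 6.45% of receptor rows and 16.0% and 17.1% of all rows. The median difference was 0.038 over the members, 0.027 over the beta rows, 0.010 over all rows and 0.012 over rows in the same range.

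The intervals bound what the arrays could have missed. All 23 of the 95% intervals included 0, the lowest bound was -0.13 (Pcdhb16) and the highest 0.19 (Pcdhb4). A change of signal by more than 1.14-fold up or 1.10-fold down thus lay outside the interval of every member. The within-group SD of the members was 0.027 to 0.094, with a median of 0.046, against 0.062 for rows in the same range and 0.066 for all rows. At background much of a probe set's signal does not come from its transcript, so a larger change in RNA could give a small change in signal, and the bounds hold for signal only. In a culture, few cells with much RNA and many cells with little cannot be told apart. The beta genes are similar in sequence, and probes may read more than 1 of them, so their values need not be independent.

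**Figure D3:**
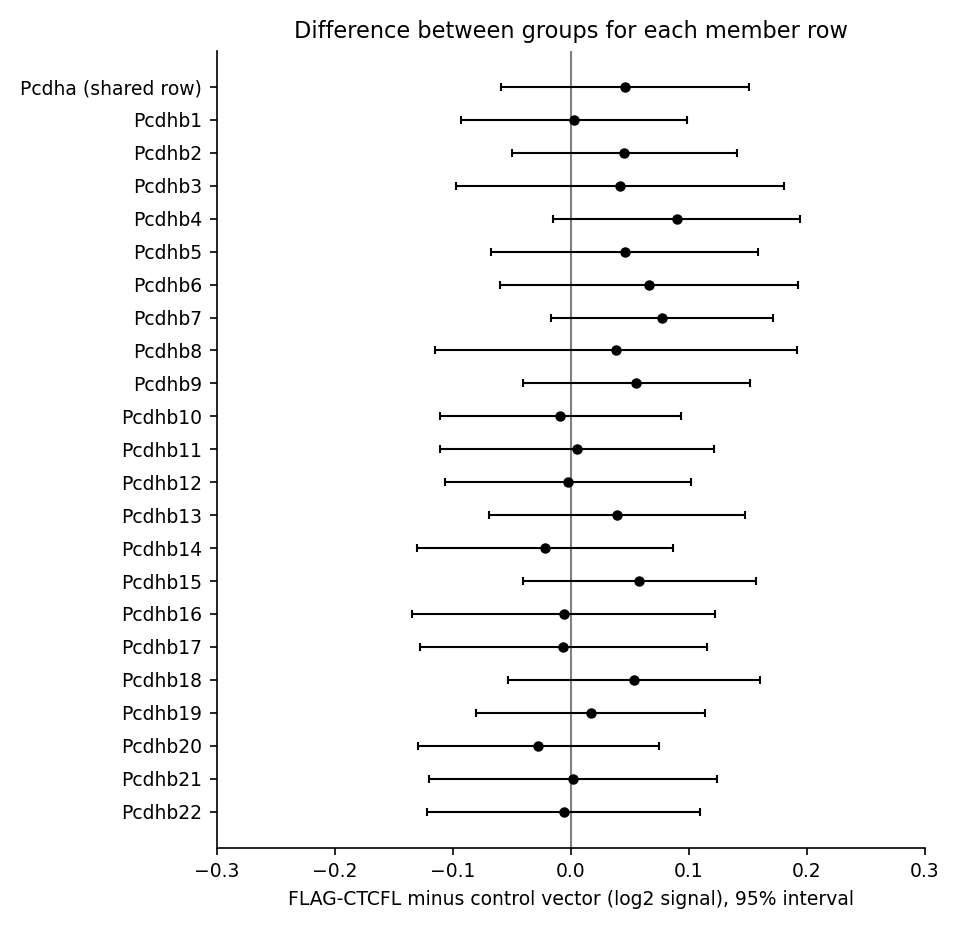
Difference in log2 signal, FLAG-CTCFL minus control vector, for each member row with its 95% interval from limma (n = 3 per group). All 23 intervals cross 0 and lie between -0.13 and 0.19.

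The small upward median moved with single arrays. Relative to each row's mean over 6 arrays, the members' median deviation was -0.035, -0.015 and 0.00019 on the control arrays and -0.011, 0.038 and 0.031 on the FLAG-CTCFL arrays. FLAG-CTCFL replicate 1 lay with the controls and the other FLAG-CTCFL arrays above them. FLAG-CTCFL replicate 2 was the highest array for 10 of the 23 members. The receptor rows were also highest on that array (0.022), as were rows in the same signal range (0.029), and its SD over all rows was the smallest, 1.41 against 1.44 to 1.47. Without it the members' median difference was 0.011. FLAG-CTCFL replicate 3 differed in that its receptor rows (-0.0070) were not raised. With the receptor median of each array subtracted, a setting added after the data were seen, the members' median difference was 0.036. The part of array-wide background in the members' median was not tested further.

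**Figure D4:**
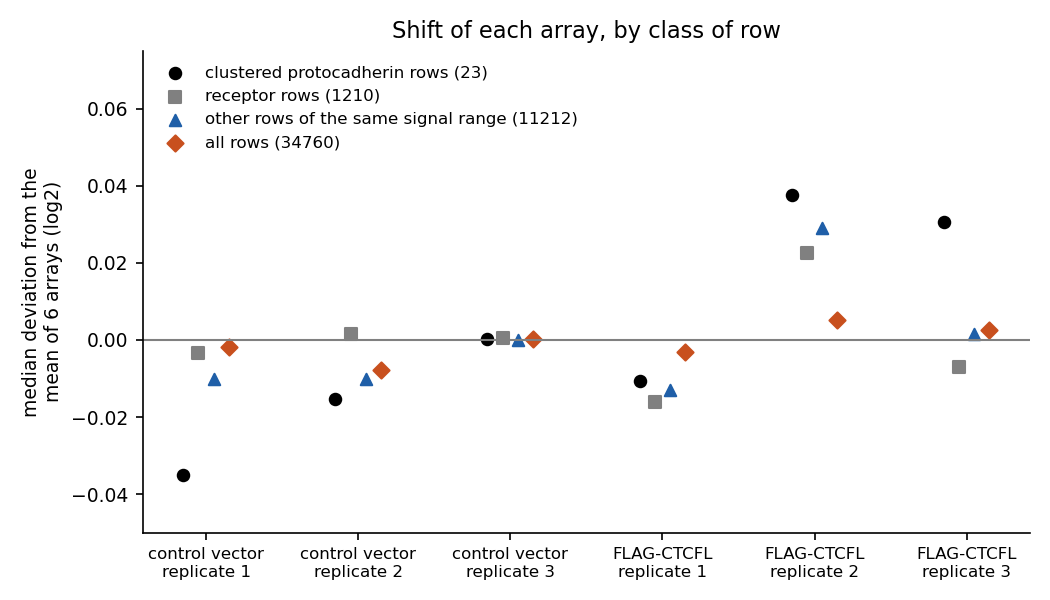
Median deviation of each array from the mean of the 6 arrays, in log2 units, for the members, the receptor rows, other rows of the members' signal range and all rows. FLAG-CTCFL replicate 2 is high for the first 3 of these classes, at 0.038, 0.022 and 0.029, and replicate 3 is high for the members alone, at 0.031.

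The transgene and the factors that act at these promoters were read on the same arrays. Ctcfl read 7.70, 7.85 and 7.89 with the control vector and 11.33, 11.22 and 11.24 with FLAG-CTCFL, which fits the labels (3.45 ± 0.06, limma adjusted p = 3.41e-07). For Ctcf itself the difference was 0.014 ± 0.049 (adjusted p = 0.904). Of 12 measured CTCF, CTCFL and cohesin factors, 2 were higher and 0 lower, Ctcfl itself and Stag1, a cohesin subunit (0.39, adjusted p = 0.00186). Among rows above the 50th signal percentile, fitted alone, 2 of the 12 passed, against 6303 of all 17380 such rows. After quantile normalization 6 of the 12 were higher and 0 lower, and with array weights 3 were higher and 1 lower. The cohesin release factor Wapl (-0.18, adjusted p = 0.0908) and the loader subunit Mau2 (-0.12, adjusted p = 0.151) did not pass.

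Of 17 measured regulators of silencing, 1 was higher and 6 were lower, with a median of -0.098 against 0.010 over all rows. In the fit of only rows above the 50th signal percentile 7 of the 17 passed, 1 higher and 6 lower. Of all 17380 such rows 6303 passed, 2541 higher and 3762 lower, and their median difference was not taken. The 6 lower genes include Tet1 (-0.24, adjusted p = 0.0211) and Tet2 (-0.21, adjusted p = 0.0434), which remove DNA methylation rather than add it. Ehmt2, an H3K9 methyltransferase (-0.22, adjusted p = 0.0202), is also among them. Rest, the repressor of neuronal genes in other cells, fell from 11.65, 11.79 and 11.66 to 11.33, 11.05 and 11.13, with no overlap. It fell by 0.53 (limma adjusted p = 0.00185). The de novo methyltransferase Dnmt3a fell by 0.53 (adjusted p = 0.000391), its cofactor Dnmt3l rose by 0.40 (adjusted p = 0.0120) and the histone deacetylase Hdac3 fell by 0.25 (adjusted p = 0.0153). Dnmt3b, which methylates clustered protocadherin promoters in the embryo (-0.14, adjusted p = 0.188), Smchd1 (-0.094, adjusted p = 0.521), the H3K9 methyltransferase Setdb1 (-0.17, adjusted p = 0.127) and its partner Trim28 (0.13, adjusted p = 0.171) did not pass. Of the 17, 4, 3 and 3 passed without control replicate 1, 2 and 3, and 3 when FLAG-CTCFL replicate 3 was dropped, and Tet1, Tet2, Ehmt2 and Hdac3 were among those lost in such fits. The mean of every member over the 6 arrays was below the limit on these same arrays.

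Genes for proteins through which clustered protocadherins signal, or which take part in cleaving them, lay above the limit, 16 of 16 measured. Of these 1 was higher and 4 were lower. In the fit of only rows above the 50th signal percentile 6 of the 16 passed, against 6303 of all 17380 such rows. Ptk2b, the kinase PYK2 that the cytoplasmic part of alpha and gamma protocadherins binds, fell from 9.22, 9.15 and 9.06 to 8.30, 8.40 and 8.36. The groups were far apart, and it fell by 0.79 (limma adjusted p = 5.04e-05). Of the WAVE actin complex, which some of these proteins recruit, Cyfip2 rose by 0.31 (adjusted p = 0.00265), Brk1 fell by 0.23 (adjusted p = 0.0197) and Nckap1 did not pass (-0.21, adjusted p = 0.0853), though it did after quantile normalization (0.0492), among rows with a symbol (0.0337), with 1 row per gene (0.0202), with array weights (0.0199) and without FLAG-CTCFL replicate 1 (0.0302). Psen2, a catalytic subunit of the gamma-secretase that cleaves protocadherins, fell by 0.22 (adjusted p = 0.0209), the protease Adam10, which sheds their outer part, fell by 0.21 (adjusted p = 0.0286), and the receptor kinase Ret did not pass (-0.096, adjusted p = 0.177). The 5 calls became 3, 2 and 3 without control replicate 1, 2 and 3 and 3 without FLAG-CTCFL replicate 3; Brk1, Psen2 and Adam10 were lost in some of these fits, Ptk2b and Cyfip2 in none.

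The genes around the clusters were mostly bright, and some of them changed. In the gene order of GRCm38.p6, Zmat2 is the last listed coding gene before the alpha cluster, Slc25a2 and Taf7 follow the beta cluster, and Diaph1 follows the gamma cluster. Zmat2 read 9.95, 9.90 and 9.86 against 10.21, 10.00 and 10.20 and rose by 0.24 ± 0.06 (limma adjusted p = 0.0372). This call was lost in 5 of the 6 fits that left out 1 array, all but that without FLAG-CTCFL replicate 2, with adjusted p up to 0.128. The RNA Vaultrc5 (-0.0061) and the predicted gene Gm6756 (-0.035), which follow Zmat2, did not pass.

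Slc25a2, an intronless gene for a mitochondrial ornithine carrier, is the next listed gene after Pcdhb22 and was as dim as the members. It read 7.33, 7.38 and 7.43 against 7.52, 7.61 and 7.62. All 3 FLAG-CTCFL arrays lay above the control arrays, and it rose by 0.20 ± 0.05 (95% interval 0.090 to 0.32; limma adjusted p = 0.0235), although both group means were below the limit. In the fits that dropped FLAG-CTCFL replicate 2, FLAG-CTCFL replicate 3, control replicate 1 or control replicate 2, its adjusted p was 0.0517 to 0.0903. Its interval overlaps those of the members except Pcdhb14 and Pcdhb20, whose upper bounds were 0.087 and 0.075. No test set it against the members. Taf7, a subunit of the general transcription factor TFIID and likewise intronless, was at 9.43, 9.42 and 9.46 against 9.39, 9.33 and 9.37. Its groups did not overlap, but the difference of -0.074 did not pass (adjusted p = 0.297). Diaph1, a formin, differed by -0.050 (adjusted p = 0.512).

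Of the 19 measured neighbours, 4 were higher and 3 lower, with a median of 0.0069. The balance depended on the scaling, which gave 1 higher and 3 lower when array medians were subtracted. Quantile normalization gave 7 higher and 3 lower. In the fit of only rows above the 50th signal percentile 6 of 16 neighbours passed, against 6303 of all 17380 such rows. The 4 higher genes were Zmat2, Slc25a2, Ndufa2 (0.19, adjusted p = 0.0326) and Pcdh1. The 3 lower ones were Dnd1 (-0.19, adjusted p = 0.0153), Hdac3 and Ndfip1 (-0.29, adjusted p = 0.0113). The histidyl-tRNA synthetase genes Hars2 (0.11, adjusted p = 0.110) and Hars (0.15, adjusted p = 0.130) did not pass. Each of the 7 was lost in at least 1 fit with an array left out. Their number became 3, 2 and 2 without control replicate 1, 2 and 3, and 6, 5 and 1 without FLAG-CTCFL replicate 1, 2 and 3.

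**Figure D5:**
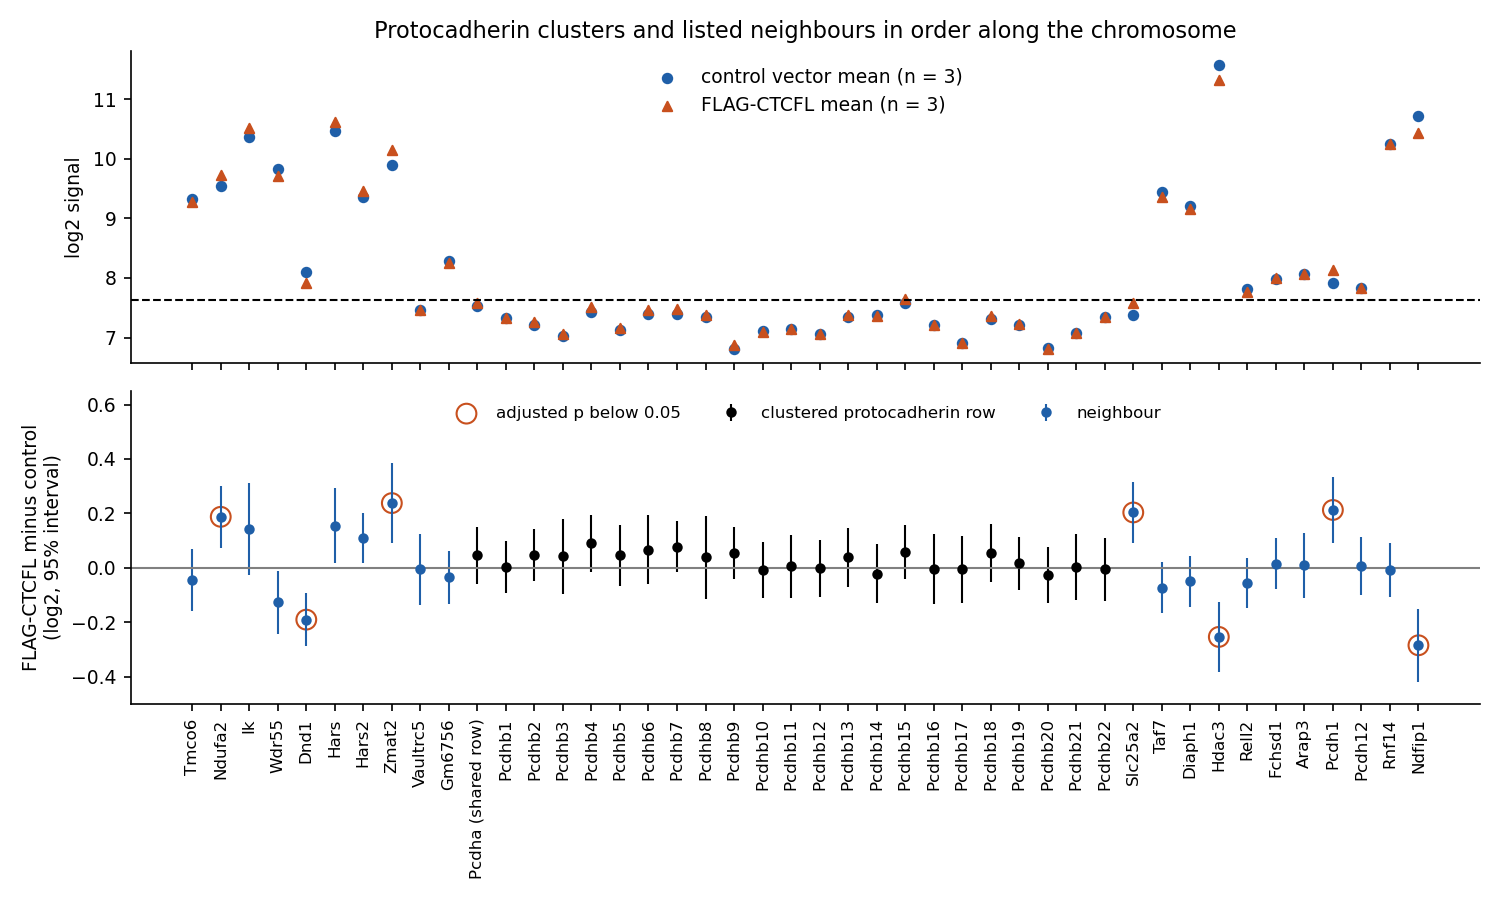
The upper panel gives mean log2 signal per group (n = 3) and the lower panel the difference with its 95% interval, for the members (black) and the listed neighbours (blue) in order along the chromosome, evenly spaced. The members form a low stretch, shared by Vaultrc5 and Slc25a2, between brighter flanks, and the ringed genes with adjusted p below 0.05 (Ndufa2, Dnd1, Zmat2, Slc25a2, Hdac3, Pcdh1 and Ndfip1) are all neighbours.

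Protocadherins outside the clusters, which have promoters of their own scattered over the genome, were somewhat brighter. Of 13 measured, each by its brightest row, 7 lay above the limit, against 21734 of all 34760 rows. Of the 13, 1 was higher and 1 lower, against 7.51% and 10.6% of all rows. Cdhr1, a photoreceptor cadherin formerly called Pcdh21, read 8.41, 8.49 and 8.67 against 7.70, 7.72 and 7.62 and fell by 0.84 ± 0.07 (limma adjusted p = 0.000111). Its call held under all alternatives run for it, including each array left out. Pcdh1, which lies past the gamma cluster on the same chromosome, read 7.88, 8.02 and 7.87 against 8.10, 8.14 and 8.16 and rose by 0.21 ± 0.05 (adjusted p = 0.0260). With array medians subtracted it did not pass (adjusted p = 0.0637). Leaving out control replicate 1, control replicate 3, FLAG-CTCFL replicate 2 or FLAG-CTCFL replicate 3 also lost it (adjusted p = 0.0513 to 0.0998). The X-linked Pcdh19 read 7.42, 7.47 and 7.49 against 7.57, 7.55 and 7.62, without overlap, but did not pass (0.12, adjusted p = 0.0975). Pcdh9 did not pass either (-0.077, adjusted p = 0.456).

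Classical cadherins and their catenins, which include adhesion proteins that ES cells use, were lower where they passed the test. Of 14 measured, 11 lay above the limit, 0 were higher and 4 lower. In the fit of only rows above the 50th signal percentile 4 of 9 passed, against 6303 of all 17380 such rows. P-cadherin, Cdh3, fell from 10.30, 10.33 and 10.29 to 8.93, 8.71 and 8.79. It fell by 1.50 (limma adjusted p = 3.99e-06). E-cadherin, Cdh1, fell by 0.38 (adjusted p = 0.00434), plakoglobin, Jup, by 0.22 (adjusted p = 0.0190) and N-cadherin, Cdh2, by 0.18 (adjusted p = 0.0163). The 4 calls became 2 without control replicate 3 or FLAG-CTCFL replicate 3, and Jup and Cdh2 were each lost in 3 of the 6 fits with an array left out. Cdh6 (0.11, adjusted p = 0.217) and Ctnnd1 (-0.17, adjusted p = 0.228) did not pass.

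Because neurons express the clusters, markers of neurons and of other cells were read as well. ES markers were all above the limit, 14 of 14, as the labelled cell type requires, and 8 were lower and 1 higher (Fgf4 -0.94, Nanog -0.62, Esrrb -0.50 and Klf2 -0.48; Zfp42 and Pou5f1 did not pass). Of 14 neuronal markers 11 lay above the limit, 4 were lower (Gap43 -0.70, Elavl3 -0.64, Syt1 -0.49 and Map2 -0.44) and 0 higher, and Stmn2 and Nefl did not pass. Their summed linear signal was 12361 to 12985 with the control vector and 10748 to 11576 with FLAG-CTCFL. Stmn2 alone gave more than the other 13 together, and without it the sums were 5245 to 5396 and 4393 to 4637. Dcx, Nefm and Elavl4 were below the limit. Of 9 neural progenitor markers 3 were higher (Nes 0.68, Sox11 0.37 and Pax6 0.32) and 0 lower, and Pou3f2 and Fabp7 did not pass. Of 11 fibroblast markers 0 were higher and 1 lower, Thy1 (-0.48), and Col1a1 and Pdgfrb did not pass. Of 10 endoderm markers 1 was higher, Dab2 (0.19), and 1 lower, Lama1 (-0.28), and Sparc (-0.32) and Gata6 did not pass. Sparc passed under 10 of the alternatives, an adjusted p of 0.1 among them. Dab2 lost its call under 7 and Lama1 under 3. Both endoderm calls were lost without control replicate 2 or 3, and 1 remained in each fit that dropped control replicate 1, FLAG-CTCFL replicate 2 or FLAG-CTCFL replicate 3. In the fit of only rows above the 50th signal percentile 6303 of 17380 rows passed. Among markers in that fit these were 9 of 14 for ES cells, 4 of 9 for neurons and 2 of 4 for neural progenitors. For fibroblasts they were 1 of 6 and for endoderm 3 of 6. The part of neurons or other cells in the members' signal was not tested.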

How the data were processed

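RNA of 6 cultures was hybridised to 1-colour Affymetrix Mouse Gene 1.0 ST arrays, per the labels' protocols. The authors deposited log2 signals, 1 for each probe set on each array; that the values are log2 was read from their range. How signals were corrected, summarised and normalized is not stated by the labels or headers. Array medians lay between 7.92 and 7.99. The platform annotation gave 1 gene symbol to 21640 rows, several to 1321 and none to 11799; symbols were updated through the GRCm38.p6 gene table, whose coordinates are not printed because the arrays' build is not stated.

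All 34760 rows were fitted with limma 3.58.1 in R 4.3.3 (two-sided moderated tests from lmFit and eBayes, with a term for group alone), with Benjamini-Hochberg adjustment over all rows and a threshold of 0.05. Intervals are 95%. No filter was used. For the other gene lists, of several rows with 1 symbol the brightest was taken. The precision is limited by the number of arrays. The procedure was tested on simulated data. Figures were drawn with matplotlib 3.10.9.

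The members and lists were chosen with earlier results of these data known. Named were all members, the direct flanks, Ctcfl and Ctcf, and of each other list up to 4 called genes with the largest change and up to 2 others with the smallest p; beyond these, Ndufa2, Dnd1, Tet1, Tet2, Ehmt2, Adam10, Dnmt3b, Smchd1, Dcx, Nefm and Elavl4 were chosen once their values had been seen. The alternatives comprised a replicate block, array medians subtracted, quantile normalization, only rows above the 25th or 50th signal percentile, only rows with a symbol, 1 row per gene, array weights, a robust fit with a variance trend, variances not shared, an adjusted p of 0.1, other background limits and leaving out each array. Added after seeing the data were subtraction of receptor medians, array weights with 1 row per gene, and taste receptor and keratin-associated rows as background.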

Additional observations from a re-analysis of the deposited data

How the results depend on the processing

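Of the 23 members, 2 passed with array weights and 1 row per gene (Pcdhb4 and Pcdhb7, both higher), and 0 under the other alternatives that kept members, array weights over all rows included. The filter at the 50th percentile left no member and so gave no value, and that at the 25th percentile left 6, whose median was 0.062. The members' median, 0.038, was 0.014 after quantile normalization and 0.013 after subtraction of array medians. It was 0.036 after subtraction of receptor medians, 0.026 with array weights and 0.011 to 0.041 with 1 array left out. With the 90th percentile of receptor rows as the limit 2 members lay above it (the alpha row and Pcdhb15), and 0 under each other limit tried. All rows that passed numbered 6286, and 10036 with array weights and 4024 without a shared variance. The replicate block called 5422 rows and 0 members. Deviations of same-numbered arrays correlated at 0.075, -0.12 and -0.038, and those of other pairs at -0.25 to 0.25. With 3 arrays per group these values cannot tell whether the cultures were made in pairs. With the block Ndufa2 (adjusted p = 0.0705), Dnd1 (0.0510), Tet2 (0.0639) and Adam10 (0.0640) lost their calls and Sparc (0.0467) gained one. Other genes named as not passing also passed under some alternatives. Among them were Nefl, Wapl and Col1a1, each under 5, and Hars and Hars2, each under 4.

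Differences near 0 changed sign without passing the test. After subtraction of array medians these were Pcdhb1 (-0.022), Pcdhb11 (-0.020), Pcdhb19 (-0.0084), Pcdhb21 (-0.023) and Ctcf (-0.011). After quantile normalization they were Pcdhb1 (-0.017), Pcdhb11 (-0.012), Pcdhb21 (-0.011) and Diaph1 (0.0014), and after subtraction of receptor medians Pcdhb21 (-0.00063). With array weights they were Pcdhb11 (-0.0080), Pcdhb13 (-0.0072), Pcdhb16 (0.057), Pcdhb17 (0.018), Pcdhb21 (-0.013), Pcdhb22 (0.026), Vaultrc5 (0.0050) and Ctcf (-0.00098). With array weights and 1 row per gene they were Pcdhb10 (0.00029), Pcdhb11 (-0.0086), Pcdhb13 (-0.016), Pcdhb14 (0.00018), Pcdhb16 (0.070), Pcdhb17 (0.025), Pcdhb21 (-0.014), Pcdhb22 (0.032), Vaultrc5 (0.0077), Ctcf (-0.0052) and Fabp7 (-0.0068). With 1 array left out the ranges were -0.014 to 0.019 for Pcdhb1, -0.0019 to 0.095 for Pcdhb3, -0.022 to 0.11 for Pcdhb8, -0.029 to 0.018 for Pcdhb10, -0.038 to 0.039 for Pcdhb11, -0.032 to 0.018 for Pcdhb12, -0.046 to 0.012 for Pcdhb14, -0.050 to 0.041 for Pcdhb16, -0.034 to 0.042 for Pcdhb17, -0.00052 to 0.035 for Pcdhb19, -0.044 to 0.039 for Pcdhb21, -0.039 to 0.029 for Pcdhb22, -0.038 to 0.039 for Vaultrc5 and -0.023 to 0.041 for Ctcf. In all, 9 members were above 0 and 1 below 0 under every alternative, and 13 took both signs. The cause was not tested. Signal at background limits what these arrays can show of the clusters.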
